A study of Homo sapiens with 6 samples.

Results

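The pyruvate dehydrogenase system was followed here through 10 of the 57905 genes in the count files: the kinases PDK1, PDK2, PDK3 and PDK4, the phosphatase catalytic subunits PDP1 and PDP2, and the complex subunits PDHA1, PDHB, DLAT and PDHX. PDK2 was chosen by its gene-level fold change between IRE1-treated and control samples, a large loss, so its values are given as a description and without a p-value. The other 9 genes were included because they act on, or belong to, the same complex. Earlier results of these data were known when they were chosen. Of the 10, all but PDK4 had counts, and these 9 passed the filter on low counts (14398 genes passed of 24945 with a count in any library).

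The study asked which mRNAs of multiple myeloma cells are cut by IRE1, the endoplasmic reticulum stress sensor whose cytoplasmic part is an endoribonuclease. Total RNA (5 μg) from H929, an established human multiple myeloma cell line, was incubated at 37 °C for 1 h either together with recombinant human IRE1 (2 μg, amino acids 467 to 977) or, in the control reactions, with no enzyme, and heat (95 °C, 5 min) ended the reaction. Each group had 3 samples, named Control 1 to 3 and IRE1 1 to 3, which the series calls biological replicates of the line without saying how the cultures were separated, so p-values measure the spread between these samples. Poly(A) RNA was purified after the reaction, so a cut transcript keeps its 3′ fragment and loses its 5′ fragment, and a gene's count reports the sum over both sides of any cut. The RNA was cleaved outside cells, and no transcription, translation or cellular decay could follow.

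Pyruvate dehydrogenase is a mitochondrial complex that turns pyruvate into acetyl-CoA and so links glycolysis to the citric acid cycle. Its E1 enzyme is built from PDHA1 and PDHB, its E2 acetyltransferase is DLAT, its E3 enzyme is DLD, and PDHX anchors E3 to the core. PDK kinases switch E1 off by phosphorylation and PDP phosphatases switch it on again, so the ratio of kinase to phosphatase is a known control point of glucose oxidation, also in tumour cells.

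PDK2 (ENSG00000005882, GRCh37 chr17:48172101-48189516, plus strand) encodes a widely expressed member of the kinase family. IRE1 is known to cut at the hexamer CUGCAG in the loop of a small hairpin, first described in XBP1 mRNA. The longest protein-coding transcript of PDK2 in GENCODE, PDK2-203 (3364 bases), held 3 copies of this hexamer on the transcript strand. When 15 bases on either side of the hexamer were folded, 2 of the 3 lay in a predicted hairpin, taken here as a loop with 5 to 11 bases above a stem of 3 base pairs or more. A hexamer was counted as lying in such a loop when the G just before its CAG was unpaired there. Its other bases could be paired in the stem. The 3 PDK2 sites are shown here because they carry the hexamer in the member with the largest loss, beside both known cut sites of XBP1 and hexamers of the known substrate BLOC1S1. They are written 5′ to 3′ as DNA letters from the GRCh37 reference, with the hexamer in capitals. In the upstream site of XBP1 the capitals mark CCGCAG, which differs from CUGCAG and was found only with the looser motif CNGCAG.
PDK2 coding site: ttccagggagacCTGCAGctcttctccatg
PDK2 3′ UTR site in a hairpin: atgaggctggtcCTGCAGcctctccctccg
PDK2 3′ UTR site outside a hairpin: ctgctcgaggccCTGCAGtggccttggcaa
XBP1 upstream site: ggtctgctgagtCCGCAGcactcagactac
XBP1 downstream site: ctacgtgcacctCTGCAGcaggtgcaggcc
BLOC1S1 exon 2 site: gagaggctatcaCTGCAGcgacctgcctga
BLOC1S1 last exon site: tacaaagggcagCTGCAGtctgccccttcc

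The coding site of PDK2 lay in exon 10 of 11 at transcript position 1115 (chr17:48186699-48186728), in a predicted loop of 11 bases on a stem of 5 pairs. The hairpin site in the 3′ UTR lay in exon 11 at position 1827 (chr17:48187967-48187996), at a loop of 6 bases on a stem of 7 pairs. The CAG of this hexamer pairs within that stem, so the loop does not hold the whole hexamer. The last site, at position 1957 of the same exon (chr17:48188097-48188126), was in no such loop. The 3 sites were present in 3 of the 8 protein-coding PDK2 transcripts. The XBP1 sites were read from the minus strand in exon 4 (chr22:29192126-29192155 and chr22:29192100-29192129), with predicted loops of 6 and 7 bases. These loops come from folding the short window and need not match the known structures of the sites. BLOC1S1, on the plus strand, held 3 hexamers, of which only that in exon 2 (chr12:56110729-56110758) was in a predicted hairpin, with a loop of 8 bases on 3 pairs. The AG of this hexamer pairs within that stem, so this loop does not hold the whole hexamer either. The hexamer in its last exon (chr12:56113361-56113390), at position 448 of the canonical transcript, was in no such loop. The study cites a cut in this mRNA at a guanine whose stated position is close to that last hexamer, without naming the transcript it counts from, so which hexamer is cut cannot be told from these data.

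Such sites were common. Of the longest transcripts of 12207 tested protein-coding genes, 86.7% held the hexamer. In 36.9% the G before its CAG was in a predicted hairpin loop, the rule used for every hairpin site here. Among 1439 transcripts within 10% of the length of PDK2-203, 34.8% had a hairpin site, and the median number of hexamers was 2. At least 1 hairpin site was found in the longest transcript of 5 members. These were PDK1 with 4 of 9 hexamers, PDK2 with 2 of 3, PDHA1 with 2 of 7, PDP1 with 1 of 2 and PDHX with 1 of 2. Not all of these loops held the whole hexamer. The loop at position 7000 of PDK1 had 5 bases, and both PDHA1 sites had part of the hexamer in the stem. The same held for the PDHX site and for the PDK1 sites at positions 2585, 12056 and 12631. PDP2 had 4 hexamers, DLAT 3, and PDK3 and PDHB 2 each, none of them in a predicted hairpin loop, and PDK4 had 1 outside a loop. Across all 12207 genes, the 4499 with a hairpin site had a median log2 fold change of -0.05, and the 7708 without had 0.02. Hairpin sites were more common in long transcripts (66.7% at lengths like PDK1, 19.5% at lengths like PDHB). Long transcripts also had lower fold changes, as described below. The 2 groups were not matched for length, so site and length cannot be told apart here. A match is a description of the letters and of a fold predicted from a short window, and cleavage at these positions was not measured at the level of genes.

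**Figure D1:**
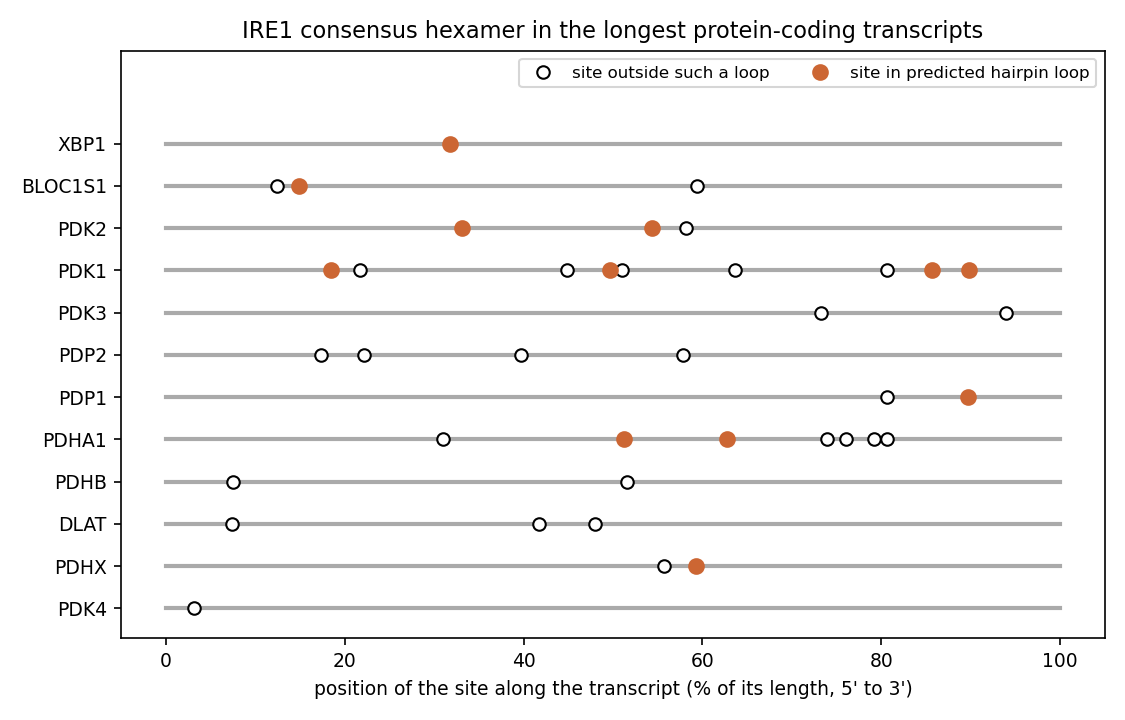
Position of each CUGCAG hexamer along the longest protein-coding transcript of the members and of the known substrates XBP1 and BLOC1S1, as a percent of transcript length. Filled points have the G before the CAG of the hexamer in a predicted hairpin loop and open points do not. PDK2 shows 2 filled points and 1 open point, and PDP2 shows open points only.

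The libraries held 19615715 to 25678499 counts on genes. The main scaling (TMM) gave factors of 1.02 to 1.03 in the controls and 0.947 to 0.996 in the IRE1-treated samples. Every library had a lane to itself, which means that effects of lane and of sample cannot be told apart. All 8 plasma cell markers examined were expressed, among them SDC1, TNFRSF17 and IRF4. Of 8 markers of other cell types, CD3D, CD14, MS4A1 and EPCAM had 0 to 3 counts in every library and LYZ and COL1A1 had at most 13, while the T cell gene CD3E was present at 890 to 1063 counts. The B cell gene PAX5 had 13 to 36 counts and also passed the filter (log2 fold change -0.61, adjusted p = 0.151). The known substrate BLOC1S1, a subunit of lysosomal trafficking complexes, fell to 39.0% of its control level (log2 fold change -1.37, SE 0.095, adjusted p = 1.25e-06, from the quasi-likelihood test of edgeR after Benjamini-Hochberg adjustment, as for all adjusted p-values here). Part of its exons is shared with a readthrough gene on the same strand. XBP1 was at 93.8% over the whole gene (-0.09, SE 0.0436, adjusted p = 0.143 by the same test), so its gene-level count did not pass the threshold of 0.05, although it did once the length and GC trend described below was removed (-0.21, adjusted p = 0.000902).

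The 9 measured members did not move in one direction. Normalized counts are counts scaled by library size and TMM factor to the mean library, and fold changes are IRE1-treated against control on the log2 scale. The groups did not overlap in any of the 9 members. For PDK2 the choice by its loss fixed this. The 8 others were lower after IRE1 in 5 (PDK1, PDP1, PDP2, DLAT and PDHX) and higher in 3 (PDK3, PDHA1 and PDHB), where 39.1% of all tested genes did not overlap (20% lower and 19.1% higher). Of the 8 members other than PDK2, 4 fell, 3 rose and 1 did not pass an adjusted p of 0.05. Over all tested genes 22.7% passed (12.4% lower and 10.3% higher). Without Control 2, 3 of the 8 passed, none of them higher, and without IRE1 2 there were 4. Of all genes that passed, 54.5% were lower, against 79.2% when scaled by library size alone and 39.6% once the length and GC trend was removed. The median log2 fold change of these 8 was -0.19 (-0.23 with PDK2), against 0.0045 over all tested genes.

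**Figure D2:**
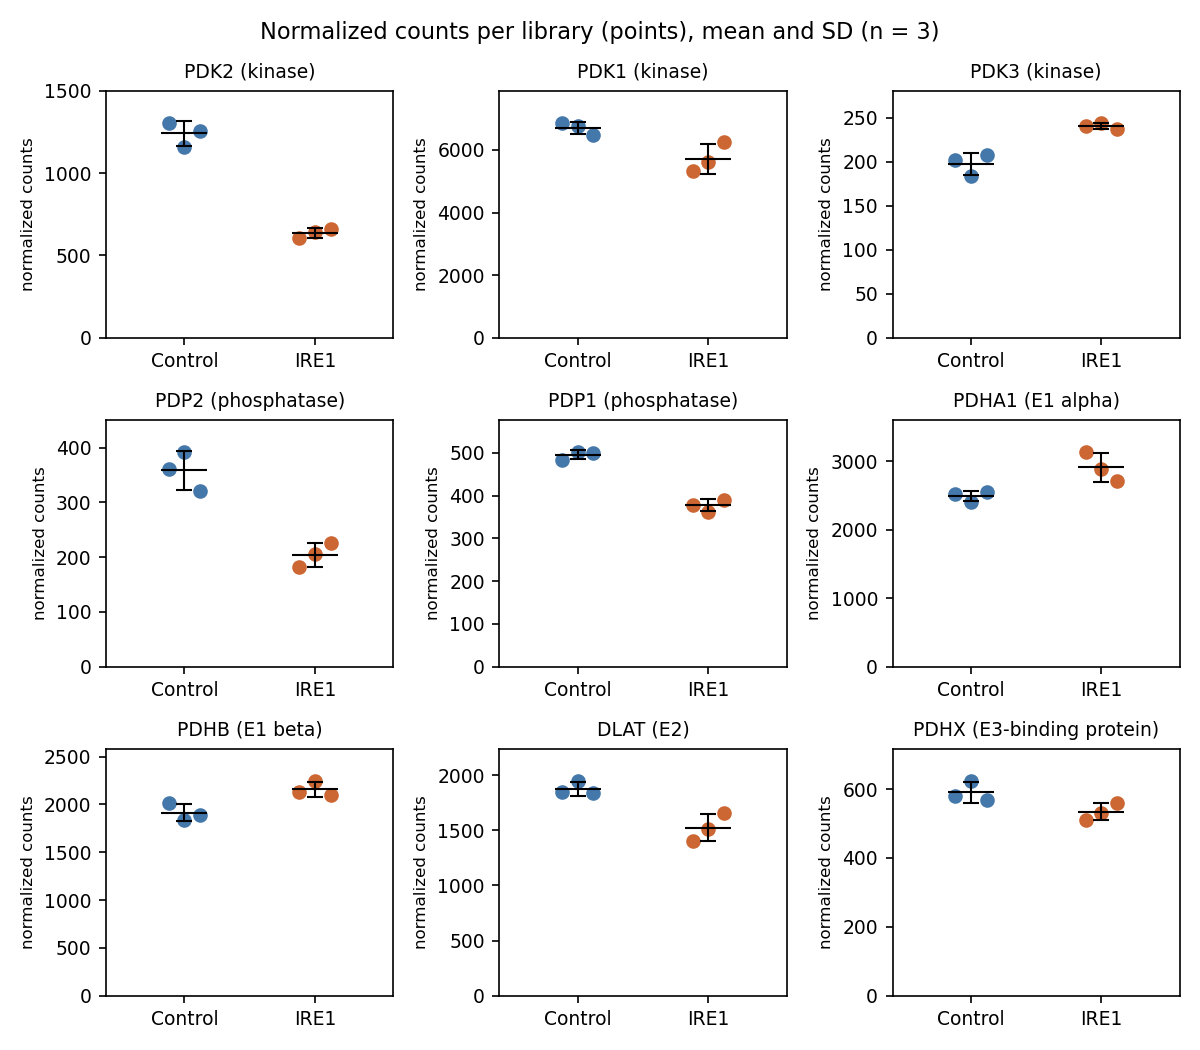
Normalized counts of the 9 expressed members in each library (points), with the group mean and SD (n = 3) in black and a separate axis from 0 for each gene. PDK2 stands at 1159 to 1306 in the controls and 603.5 to 659.5 after IRE1; the points of the groups do not overlap in any panel, and PDK3, PDHA1 and PDHB are the panels with the IRE1-treated points on top.

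Among the kinases, PDK2 had the largest difference. It stood at 1306, 1159 and 1258 normalized counts in Control 1, 2 and 3 and at 603.5, 643.6 and 659.5 in IRE1 1, 2 and 3. Every IRE1-treated library was far below every control library, and the 3 treated libraries lay close together. The means were 1241 ± 74.6 and 635.5 ± 28.8 (SD, n = 3), so that 51.2% of the control level was left (log2 fold change -0.96, SE 0.0651). This level covers the reads counted, which may leave out the overlap with SAMD14 described below. The unscaled counts behind these values were 1202 to 1544 in the controls and 503 to 679 in the treated samples. Of the 14398 tested genes, 59 had a fold change as low as that of PDK2 or lower, counting PDK2 itself, and so had 7 of the 10302 genes whose mean normalized count reached 100. Leaving out any 1 library kept the PDK2 fold change between -1.01 and -0.93.

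PDK1 (chr2:173420101-173473397, plus strand) encodes the kinase best known as a target of hypoxic signalling. It had 6871, 6756 and 6491 normalized counts in the controls and 5319, 5602 and 6249 in the treated libraries. IRE1 3 was close to the lowest control, and IRE1 1 was farthest below. The mean fell from 6706 ± 195 to 5723 ± 477 (85.3%, log2 fold change -0.23, SE 0.0566, adjusted p = 0.00932 by edgeR's quasi-likelihood test). This call did not hold once the trend of fold change with transcript length and GC content, described below, was removed, when the value was 0.08 (adjusted p = 0.187), nor without Control 1 (-0.21, adjusted p = 0.0613), Control 2 (-0.22, adjusted p = 0.0528) or IRE1 2 (-0.21, adjusted p = 0.0562).

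PDK3 (chrX:24483361-24568583, plus strand), a kinase with a restricted tissue range, was scarce. Its normalized counts were 201.3, 183.3 and 206.9 in the controls and 240.0, 244.1 and 237.0 after IRE1. All treated libraries were above all controls, by a small margin. The mean rose from 197.1 ± 12.4 to 240.4 ± 3.58 (122%, log2 fold change 0.29, SE 0.0978, adjusted p = 0.0462 by edgeR's quasi-likelihood test). The rise kept its direction but missed the threshold in 10 of 16 alternative settings, including DESeq2 (0.29, adjusted p = 0.0806). PDK4, the kinase induced by fasting in other tissues, had 0 counts in all 6 libraries, and a count of 0 allows at most 0.117 to 0.153 CPM (3 counts relative to each library's total on genes).

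The make-up of the kinase transcripts also differed between the groups. Counts were divided by the merged exon length of each gene to set genes side by side. On this per-kilobase scale, PDK2 made up 33.5, 31.3 and 33.9% of the summed kinase level in the controls and 22.9, 23.1 and 21.7% in the IRE1-treated samples. PDK1 made up 65.5% ± 1.48 in the controls and 74.8% ± 0.942 after IRE1 (SD, n = 3), and PDK3 1.64% ± 0.0996 and 2.68% ± 0.21. These shares contain the PDK2 loss that chose the gene and are a description. They also depend on the length used: with the canonical transcript, which is 1741 bases for PDK3 against 12720 for its longest, PDK2 went from 38.5 to 25.8% and PDK3 from 11.8 to 18.9%.

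**Figure D3:**
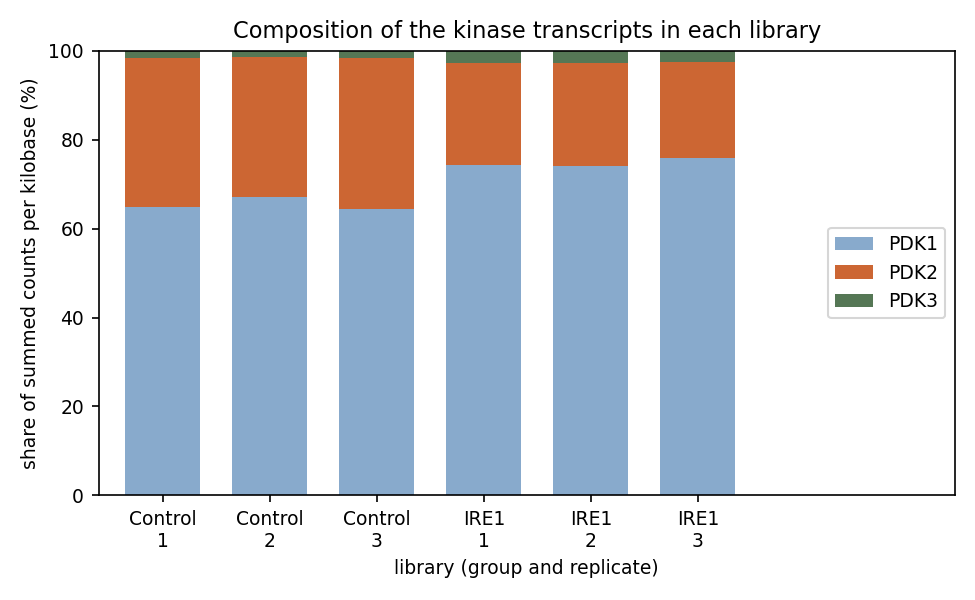
Share of PDK1, PDK2 and PDK3 in their summed counts per kilobase of merged exons in each library, in percent. The PDK2 segment is 31.3 to 33.9% in the controls and 21.7 to 23.1% after IRE1; PDK4 had no counts and is not drawn.

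Both phosphatase genes fell. PDP2 (ENSG00000172840, chr16:66912492-66929657, plus strand), which encodes the catalytic subunit less dependent on calcium, had 361.9, 392.6 and 321.2 normalized counts in the controls and 182.4, 205.0 and 226.3 after IRE1. The highest treated library was well below the lowest control. The mean fell from 358.6 ± 35.8 to 204.6 ± 22 (57.1%, log2 fold change -0.80, SE 0.106, adjusted p = 0.000168 by edgeR's quasi-likelihood test). It was the largest difference among the tested members, and 113 of 14398 genes were as low or lower. PDP2 passed the threshold in all 16 alternatives, with fold changes from -0.88 to -0.59.

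PDP1, the calcium-stimulated catalytic subunit, had 482.9, 502.5 and 500.3 normalized counts in the controls and 377.9, 362.5 and 390.4 in the treated libraries. The libraries of each group lay within a narrow range, with a clear gap between the groups. Its mean fell from 495.2 ± 10.8 to 377.0 ± 14.0 (76.1%, log2 fold change -0.39, SE 0.0747, adjusted p = 0.00191 by the same test). It also passed in all 16 alternatives. PDPR encodes the regulatory subunit that partners the phosphatase and is not one of the 10 members. It had 1117, 1166 and 1085 normalized counts in the controls and 622.7, 765.1 and 819.7 after IRE1. Its mean fell to 65.5% (log2 fold change -0.60, SE 0.0808, adjusted p = 0.000187 by edgeR's quasi-likelihood test), again in all 16 alternatives. The 3 phosphatase genes examined were thus all lower, where 12.4% of all tested genes passed as lower. Their transcripts are long, and longer transcripts had lower fold changes, as described below. Of genes in the length group of PDP1, 73.6% had a value below 0, and in that of PDP2 and PDPR 85.2%.

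The E1 genes rose slightly. PDHA1 (chrX:19362011-19379836, plus strand), which encodes the E1 alpha subunit that the kinases phosphorylate, had 2520, 2402 and 2549 normalized counts in the controls and 3139, 2889 and 2718 after IRE1. IRE1 1 was the highest library and IRE1 3 the treated library nearest to the controls. The mean rose from 2490 ± 78.0 to 2915 ± 212 (117%, log2 fold change 0.23, SE 0.0561, adjusted p = 0.00927 by edgeR's quasi-likelihood test). Without Control 2 the adjusted p was 0.0701 at a fold change of 0.20.

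PDHB (chr3:58413357-58419584, minus strand), which encodes E1 beta, had 2015, 1838 and 1894 normalized counts in the controls and 2127, 2248 and 2100 after IRE1. The lowest treated library was only just above the highest control. The mean rose from 1916 ± 90.4 to 2158 ± 78.7 (113%, log2 fold change 0.17, SE 0.0529, adjusted p = 0.0294 by the same test), and this call was lost in 8 of 16 alternatives. With library size in place of TMM the value was 0.10 (adjusted p = 0.232), and without the length and GC trend it was 0.03 (adjusted p = 0.718).

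The E2 gene DLAT (chr11:111896132-111935128, plus strand) went the other way. It had 1843, 1948 and 1835 normalized counts in the controls and 1405, 1510 and 1653 after IRE1. All treated libraries were below the controls, with IRE1 1 the lowest. The mean fell from 1876 ± 63.2 to 1523 ± 125 (81.2%, log2 fold change -0.30, SE 0.0601, adjusted p = 0.00268 by edgeR's quasi-likelihood test), and it passed in all 16 alternatives. PDHX (chr11:34937376-35042138, plus strand), the E3-binding subunit, had 579.3, 624.0 and 567.2 in the controls and 511.1, 531.6 and 559.4 after IRE1, a gap narrower than the range within either group. Its means were 590.2 ± 29.9 and 534.0 ± 24.3 (log2 fold change -0.14, SE 0.0714, adjusted p = 0.17 by the same test), which did not pass. DLD, the E3 subunit shared with other dehydrogenase complexes and not one of the 10 members, had 997.5 to 1031 in the controls and 974.2 to 1071 after IRE1, so its groups overlapped (log2 fold change 0.03, SE 0.0587, adjusted p = 0.724 by the same test). With library size in place of TMM its value was -0.04.

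The balance between subunits was compared for 2 pairs that sit side by side in the complex, as the log2 ratio of counts per kilobase. PDHA1 to PDHB was 0.31 ± 0.0532 in the controls and 0.36 ± 0.112 after IRE1 (SD, n = 3), a difference of 0.05 (two-sided exact permutation test, p = 0.7, adjusted p = 0.7 over the 2 ratios). DLAT to PDHX was 0.65 ± 0.0258 and 0.49 ± 0.0522, a difference of -0.16 with no overlap between groups (exact permutation p = 0.1, adjusted p = 0.2). With 3 libraries against 3 this test cannot go below 0.1. Leaving out 1 library kept the DLAT to PDHX difference between -0.19 and -0.13, while the PDHA1 to PDHB difference turned to -0.01 without IRE1 1.

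Ordered by level in the controls, PDHA1 led with 502.8 ± 15.8 normalized counts per kilobase of merged exons. It was followed by PDK1 with 451.7 ± 13.1, PDHB with 406.2 ± 19.2, DLAT with 248.4 ± 8.37 and PDK2 with 226.8 ± 13.6. PDHX (158.7 ± 8.05), PDP1 (88.37 ± 1.92), PDP2 (43.65 ± 4.36) and PDK3 (11.29 ± 0.708) were lower. No neighbours in this order overlapped between libraries. After IRE1, PDHB (457.6 ± 16.7) stood above PDK1 (385.5 ± 32.1), and PDHX (143.6 ± 6.52) above PDK2 (116.2 ± 5.27), again without overlap. The order depends on the length used. With that of the longest transcript, which for PDHB is 1507 bases against 4717 of merged exons, PDHB led the controls with 1271 ± 60 and PDHA1 followed with 719.1 ± 22.5, while DLAT and PDK1 overlapped, as did PDHX and PDK2 after IRE1. With the canonical transcript PDK3 stood at 113.2 ± 7.1 in the controls, overlapping PDP1 (117.6 ± 2.55), and at 138.1 ± 2.06 after IRE1, above PDP1 (89.54 ± 3.33). In each of the 3 scales PDK2 was at place 5 in the controls and place 6 after IRE1, which restates the loss that chose it.

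Within the treated group, PDK2 was the more even of the 2 members with the largest losses. Against the control mean, its log2 difference was -1.04 in IRE1 1, -0.95 in IRE1 2 and -0.91 in IRE1 3. The same differences were -0.98, -0.81 and -0.66 for PDP2, whose raw counts in these libraries were lower (152 to 233 against 503 to 679 for PDK2). IRE1 1 was the library farthest from the controls and IRE1 3 the nearest for PDK1, PDP2, DLAT, PDHX and PDHA1 as well as for PDK2, but not for PDP1, PDK3 or PDHB. The same order held over all tested genes, so it is not particular to these members. The chi-square per gene against the controls was 22.5 to 29.2 for IRE1 1, 12.1 to 16.7 for IRE1 2 and 7.96 to 10.1 for IRE1 3. No test was made of these differences between libraries of one group.

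The genes whose values over the 6 libraries were most like those of PDK2 were sought among tested genes with at least 100 normalized counts on average, by the Euclidean distance between centred log2 normalized counts. The nearest was TRIM56, which encodes a ubiquitin ligase of antiviral signalling, at a distance of 0.206 (mean 384.6 in the controls and 192.3 after IRE1). It was followed by GEMIN5, a subunit of the SMN complex (0.234, means 1064 and 589), and NNT, the mitochondrial transhydrogenase that makes NADPH (0.243, means 1947 and 1090). ASXL2, a chromatin regulator, and LATS1, a kinase of the Hippo pathway, had distances of 0.268 and 0.275. All 5 were lower after IRE1 in every library, as their choice by likeness to PDK2 requires, and no test was made.

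Transcript length moved with the fold change across the transcriptome, and this bears on most members. Over 12225 protein-coding genes, the Spearman correlation between log2 fold change and the length of the longest transcript was -0.627, and with its GC content 0.254. These are descriptions across genes, which are not independent replicates. When the genes were split into 5 groups of like number by length, the median fold change went from 0.18 in the shortest (207 to 2006 bases) to -0.22 in the longest (6049 to 34626 bases), and the share of genes with a value below 0 from 11.8 to 85.2%.

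PDK2, at 3364 bases, was near the middle of this range, with 46.4% of genes shorter. Its GC content of 59.7% was higher than that of 83.4% of genes. The median over the genes of its length group was -0.02. Removing a smooth trend with length and GC from each library left PDK2 at -0.97, where it had been -0.96. PDP2 (6997 bases) went from -0.80 to -0.60 and PDPR (8549 bases) from -0.60 to -0.38, and both still passed. PDP1 at -0.29, DLAT at -0.23 and PDHA1 at 0.24 also passed after this step. PDK1, with 14072 bases longer than 98.8% of genes, turned from -0.23 to 0.08, and PDK3 rose to 0.59 with the length of its longest transcript but stood at 0.18 with that of its canonical transcript (adjusted p = 0.247 by edgeR's quasi-likelihood test). The cause of the trend was not tested.

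**Figure D4:**
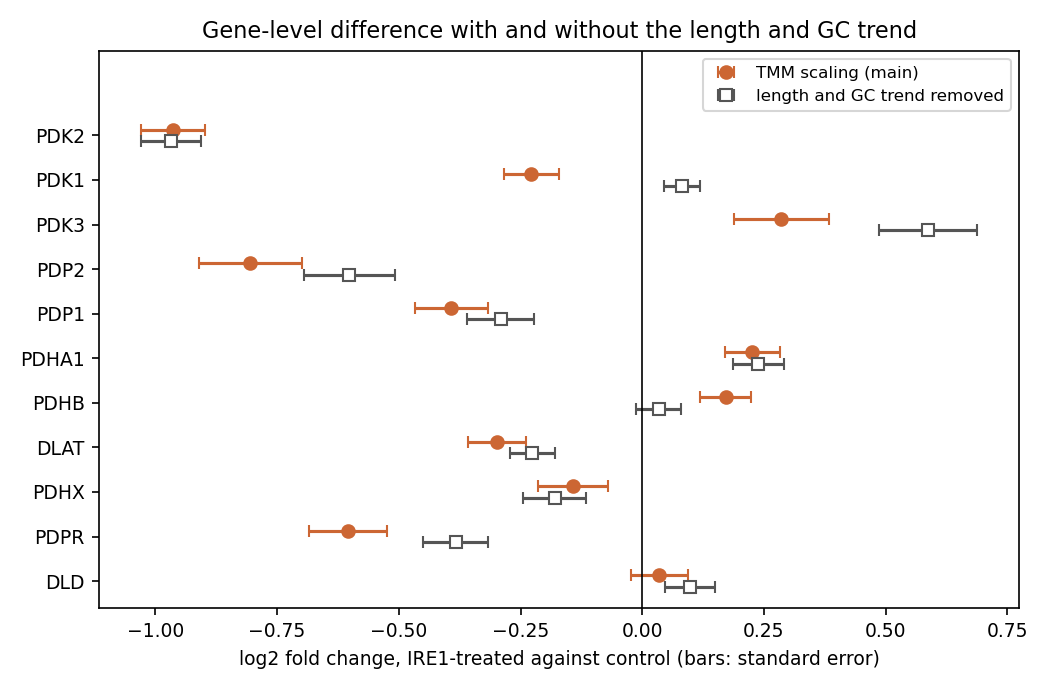
Log2 fold change of the 9 expressed members, PDPR and DLD, IRE1-treated against control, with its standard error. Filled circles are the values with TMM scaling and open squares those after the trend with transcript length and GC content was removed; PDK2 is at -0.96 and -0.97, while PDK1 moves from -0.23 to 0.08.

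Exons shared with other genes limit some of these counts. In PDK2-203, positions 1252 to 3364 (2113 bases), which take in the end of the coding sequence, the whole 3′ UTR and both UTR hexamers, overlap exons of SAMD14 on the opposite strand. The coding site at position 1115 lies outside the overlap. SAMD14 itself had 1 to 4 counts in every library. The library kit keeps strand, but the strand setting of the counting is not given in the sources used here, and without it read pairs in the overlap would have counted for neither gene. The PDK2 count would then come mainly from the part 5′ of the overlap. In that case the 51.2% left after IRE1, the kinase shares and the order of levels would not describe the whole PDK2 transcript. In DLAT 1004 bases of the longest transcript overlap PIH1D2, in PDHA1 956 overlap MAP3K15, and PDHX shares 152 with APIP. In PDPR 2161 bases of the longest transcript, between positions 1442 and 7905, overlap ENSG00000247228 on the opposite strand. PDK1 and PDHA1 each have a named pseudogene (PDK1P2 and PDHA1P1) that can share reads with them.

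The wider pathway was described with 45 further genes, of which 44 passed the filter (the testis gene PDHA2 had 0 counts). Of the 44, 5 fell, 7 rose and 32 did not pass, with a median log2 fold change of 0.02. The background of 12.4% lower and 10.3% higher stands for these too, and without Control 1 or without IRE1 2 the number that passed was 7. Besides PDPR, the genes that fell were PPM1K and 3 transcription factor genes.

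PPM1K encodes the phosphatase that activates the sister complex for branched-chain amino acids, as PDP1 and PDP2 do for pyruvate dehydrogenase. Its normalized counts were 668.9, 754.3 and 646.5 in the controls and 485.9, 448.1 and 481.7 after IRE1, with no overlap. The mean fell from 689.9 ± 56.9 to 471.9 ± 20.7 (68.4%, log2 fold change -0.55, SE 0.0764, adjusted p = 0.000249 by edgeR's quasi-likelihood test), and it passed in all 16 alternatives. The other 7 genes of the sister complexes did not pass (median over the 8 genes -0.10), and the opposing kinase BCKDK had the highest value (0.12, adjusted p = 0.0999).

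Among genes of pyruvate supply and use, 2 of 8 rose (median 0.06). LDHB, which favours the conversion of lactate to pyruvate, rose from 4939 ± 132 to 5879 ± 222 (log2 fold change 0.25, adjusted p = 0.00184 by edgeR's quasi-likelihood test). LDHA was at 0.12 (adjusted p = 0.049), and this call was lost in 12 of 16 alternatives. The lowest value was that of the lactate and pyruvate transporter SLC16A1 (-0.14, adjusted p = 0.0716). The 10 genes for thiamine and lipoate cofactors had a median of 0.06, and among them NFU1, an iron-sulfur carrier needed for lipoate synthesis, rose by 0.33 (adjusted p = 0.00702).

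Of 10 citric acid cycle genes, 3 rose and none fell (median 0.08). These were SUCLG1 of succinyl-CoA ligase (0.24, adjusted p = 0.00353 by edgeR's quasi-likelihood test) and the isocitrate dehydrogenase subunits IDH3B (0.20, adjusted p = 0.0155) and IDH3G (0.19, adjusted p = 0.0126). Citrate synthase, CS, was lowest at 0.0054 (adjusted p = 0.957). None of the 3 rises passed once the length and GC trend was removed, nor did those of LDHA, LDHB and NFU1. After that step 2 other genes of pyruvate supply and use, ME2 and SLC16A3, passed as higher, and they are named because they did.

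Of 6 genes for transcription factors known to act on PDK genes, 3 fell (median -0.22). HIF1A, the oxygen-regulated factor that induces PDK1, fell from 2548 ± 68.1 to 1919 ± 166 (75.3%, log2 fold change -0.41, adjusted p = 0.000332 by edgeR's quasi-likelihood test) and passed in all 16 alternatives. FOXO3 fell by 0.31 on the log2 scale (adjusted p = 0.00264). PPARA was at -0.28 (adjusted p = 0.0478), a call lost in 13 of 16 alternatives. ESRRA was highest at -0.0049 (adjusted p = 0.968). FOXO3 did not pass once the length and GC trend was removed (-0.11, adjusted p = 0.151). In purified RNA these factors do not act on genes, so the values are of their transcripts only.

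**Figure D5:**
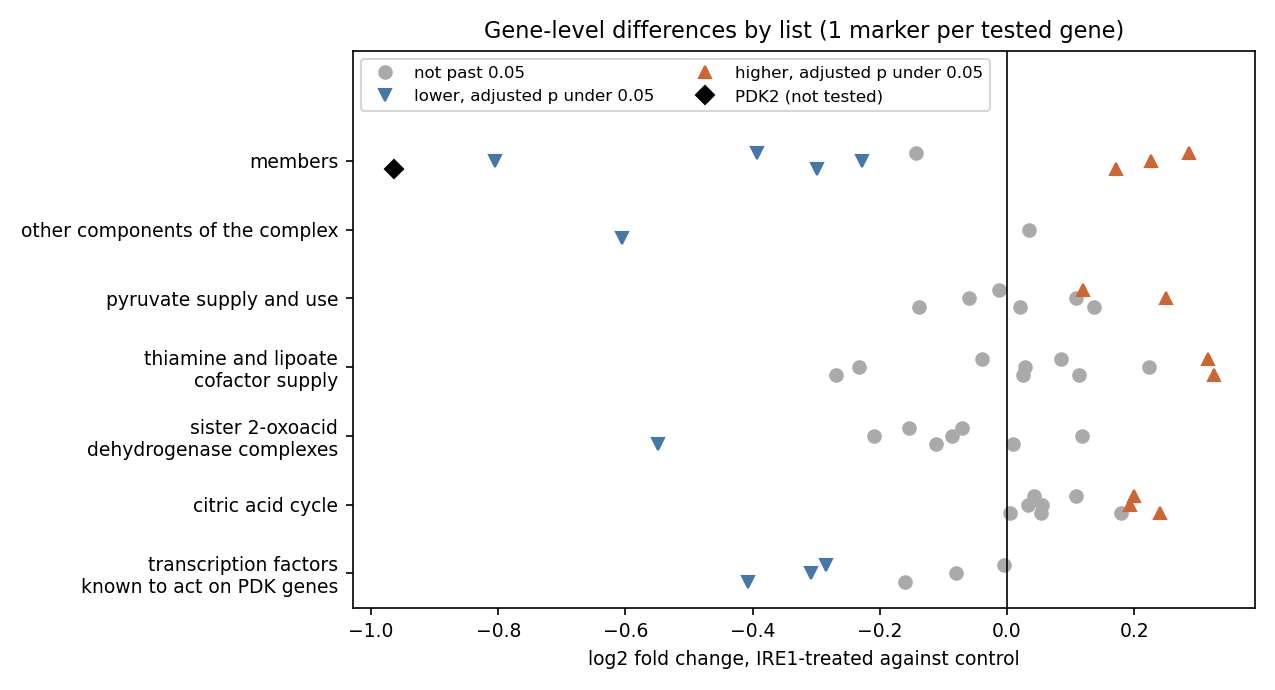
Log2 fold change of each tested gene by list, IRE1-treated against control, with 1 marker per gene. Downward triangles fell and upward triangles rose at an adjusted p under 0.05, grey circles did not pass, and the black diamond is PDK2 (-0.96, not tested); the citric acid cycle list lies between 0.0054 and 0.24.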

How the data were processed

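RNA-seq libraries from 3 control and 3 IRE1-treated samples of H929 RNA were analysed. Reads were trimmed (cutadapt 1.12) and aligned (STAR 2.5.3a, GRCh37, Ensembl release 87) by the authors, who deposited raw counts per gene for each library, for which the submitters' processing notes name HTSeq 0.6.1p1; strand setting and overlap mode are not given in the sources used here. The authors also deposited normalized CPM (their notes name edgeR 3.24.3), used here in 1 alternative only. The 5 summary lines of HTSeq that name no gene (21.4 to 23.2% of counts) were left out. Exon counts were not analysed here.

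Counts were filtered with filterByExpr, scaled by TMM and tested with edgeR 4.0.16 (R 4.3.3, quasi-likelihood, 6 libraries in 1 fit, no covariates), with p-values adjusted by Benjamini-Hochberg over 14398 genes and a threshold of 0.05. On data simulated from these libraries, 189 of 200 planted changes were recovered (97 of 100 at 2-fold) as were 4 genes without a change. The simulation gave all genes the same dispersion and held no length trend, so its few false calls need not carry over. The fits include counting error. The chi-square per gene between libraries was 2.21 or more, so none was a copy. Same-numbered samples did not deviate together (correlations -0.112 to -0.00505), so the numbers were not taken as pairs. The limit for a count of 0 was 3 counts and covers counting error only.

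Names, lengths and sequences came from GENCODE release 44 lifted to GRCh37, which named 55538 of 57905 identifiers and is not the annotation used for counting. Hexamers were searched on the transcript strand and folded with ViennaRNA 2.7.2, tested on simulated data. Merged exons set the per-kilobase scale.

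The alternatives were DESeq2 1.42.0, library size, upper quartile, no filter, at least 10 counts in every library, limma 3.58.1 on log2(CPM + 1), a block for replicate number, removal of a loess fit (span 0.5) on length and GC, both of these, each library left out in turn, other transcript lengths and 20 folded bases. Canonical transcripts, and other lengths for the order of levels, were added after seeing the data. The members and gene lists were chosen with earlier results of these data known. The genes named are the 10 members, DLD, PDPR, pathway genes past the threshold, the lowest and highest of each list, XBP1, BLOC1S1 and the 5 genes nearest to PDK2. Markers, neighbours on the genome, ME2 and SLC16A3 are named besides. Some genes that this rule would name are not reported here.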

Additional observations from a re-analysis of the deposited data

How the results depend on the processing

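PDK2 kept its direction in every alternative run (-1.01 to -0.93 with 1 library left out). It was chosen by this loss in the same libraries, so its kept direction is a description and no test. PDP1, PDP2, DLAT, PDPR, PPM1K and HIF1A stayed past the threshold in all 16. Of the values of the 28 tested named genes under these alternatives, 349 kept direction and side of the threshold, 78 lost the threshold, 8 gained it and 13 turned. The main limits are the trend with transcript length and GC content, the 3 libraries per group and the scaling. The causes of the losses were not tested.

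Removing the length and GC trend left 1639 genes changed (649 lower, 990 higher) of 3270 (1781 and 1489). Together with a replicate block it left 1383 (536 and 847), and with canonical transcripts 1532 (586 and 946). Library size gave 683 higher genes. Members other than PDK2 that changed were 4 with canonical transcripts, and those higher were 1 with canonical transcripts, with library size and with the block. Of the pathway genes, 5 changed (3 lower, 2 higher) in each of the 3 fits without the trend, and 8 were lower and 4 higher with library size. PDK1 turned to 0.081 without the trend, 0.081 (0.0805) with the block added and 0.071 with canonical transcripts. DLD was at -0.040 with library size. CS turned to -0.072 with library size, -0.0066 with no filter, -0.019 without the trend, -0.020 with the block added and -0.011 with canonical transcripts.

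With the replicate number as a block, for a pairing that the data did not bear out, 2613 genes changed, and the calls of PDK3, PDHB, LDHA and PPARA were lost. No sample pair with the same number correlated above 0.

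With 1 library left out, the genes changed numbered 1630 to 4312 (972 to 2221 lower, 638 to 2091 higher), the members 3 to 7 (3 to 4 lower, 0 to 3 higher) and the pathway genes 7 to 15 (4 to 5 lower, 3 to 10 higher). CS ranged from -0.054 to 0.049, with -0.0064 without Control 2, and ESRRA from -0.030 to 0.045, with 0.024 without Control 3. The PDHA1 to PDHB difference ranged from -0.012 to 0.088 and that of DLAT to PDHX from -0.19 to -0.13.

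With the longest transcript as the length, the control shares were 55.4% for PDK1, 42.8% for PDK2 and 1.8% for PDK3, and 66.1, 30.8 and 3.09% after IRE1. With the canonical transcript they were 49.7, 38.5 and 11.8% against 55.4, 25.8 and 18.9%. With 1 library left out, they ranged from 64.7 to 66.0, 32.4 to 33.7 and 1.58 to 1.68% in the controls and from 74.2 to 75.1, 22.3 to 23.0 and 2.60 to 2.80% after IRE1. With 20 bases folded, PDP1 lost its hairpin site, PDK1 went from 4 to 2, and 4 members kept at least 1. The share of all 12207 transcripts with a hairpin site went from 36.9 to 30%.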
